A study of Homo sapiens with 6 samples.

Results

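Cells repair double-strand breaks and blocked replication forks by homologous recombination, in which nucleases trim the broken ends, the BRCA proteins prepare the single-stranded DNA for pairing with an intact copy, and helicases and nucleases take the joined molecules apart. The Fanconi anaemia pathway removes crosslinks between DNA strands: a multi-protein core complex, with its ubiquitin-conjugating enzyme, marks the FANCD2-FANCI clamp. The kinases ATR and CHK1 hold the cell cycle while this work goes on, and many of the genes are known to be transcribed most around S phase in dividing cells. The 38 genes described here were given as a list of names from these pathways, with added checkpoint, mismatch repair and helicase genes, and 36 of them were found by exact symbol among the 6831 genes of the authors' deposited table.

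The human acute myeloid leukaemia line MOLM-13, an established cell line labelled wild type, received either DEG-35 at 50 nM or its solvent DMSO, and was sampled at 24 h as 3 RNA-seq libraries per group. The study's title names DEG-35 as a dual degrader of the transcription factor IKZF2 and of CK1α (gene CSNK1A1), a protein kinase, and the comparison asks which genes the compound regulates. All cells come from 1 line, and nothing in the labels ties replicates to separate cultures, so the p-values measure only the spread between these libraries, which may be technical. The authors' deposited table gives a fold change (log2), a p and its adjusted p per gene and nothing per library, so no levels, spread over samples or depth can be given. The header does not name the numerator. DEG-35 over DMSO was taken as the order, and under the opposite order every direction given would turn round. Values after ± are standard errors (SE) worked back from the fold change and p of each gene, and the 95% intervals are built from them.

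The table as a whole sets the scale. A gene is called here when its adjusted p is below 0.05, and by the authors' adjustment 15064 genes had been tested. Genes called in either direction made up 45.3% of them. Of 12 markers of myeloid leukaemia cells 9 were listed, 7 higher and 2 lower, where 21.4% and 24.0% of all tested genes were. The 2 lower ones were MPO at -0.36 ± 0.0965 and FUT4 at -0.23 ± 0.0596 in the authors' deposited table. Of 13 markers of other blood cells 2 were listed, NKG7 higher and CD247 lower. Among the myeloid markers ITGAX at 1.66 ± 0.199 and CSF1R at 1.57 ± 0.147 in the authors' deposited table rose by at least 2-fold, and their part in the members' changes was not tested. A marker can be unlisted because it failed or because it was never tested, so the table cannot show that a cell type was absent. The authors' deposited table gave IKZF2 mRNA at 0.82 ± 0.131 and CSNK1A1 mRNA at 0.18 ± 0.0613, both higher, which does not check the loss of either protein.

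Recombination and Fanconi genes were almost all lower with DEG-35. Of the 38 members 35 were lower, which is 92.1% against 24.0% of all tested genes, and 1, FANCF, was higher, against 21.4% of all tested genes (34 and 0 members with Bonferroni adjustment). The other 2, the checkpoint kinase gene ATR and the nuclease gene MUS81, were not listed: they failed the threshold or were never tested. Many falls were large: 27 members were lower by at least 2-fold (1 on the log2 scale), where 4.08% of all tested genes were. Lower by at least 2 on the log2 scale were 12 members, and 179 of all 15064 tested genes. None was higher by at least 2-fold, where 4.23% of all tested genes were. Over the 36 listed members the median was -1.59 on the log2 scale, beside -0.19 for all listed genes and -0.45 for the listed genes that were lower. Members reach the table only by passing, and the list was drawn up with results of these data known, so these counts and medians describe the list and are no separate support. Implied standard errors of the members ran from 0.0659 to 0.189.

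**Figure D1:**
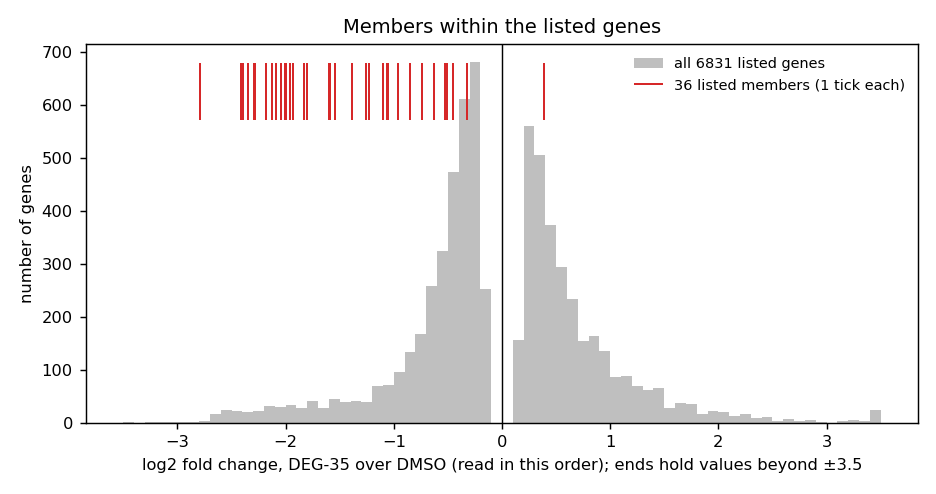
The number of genes is plotted against the log2 fold change for all 6831 listed genes (grey bars), with 1 red tick for each of the 36 listed members. The ticks lie between -2.79 and 0.39, 35 of them left of 0, and the gap around 0 is where genes did not pass.

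The sequences around the members' start sites were compared next, since the members moved together. RefSeq promoter sequences of GRCh38.p14, each 250 bases before to 50 after a gene's start, were found for 35 of the 38 members (49 entries, as some genes have several starts); RAD54B, RMI2 and FANCI had none. Both strands were searched for the letters of the E2F consensus (TTTCCCGC, TTTCGCGC, TTTGCCGC or TTTGGCGC), E2F factors being the regulators of S phase genes. They stood in 8 of the 49 entries (16.3%), in 3.31% of all 35116 promoters of the RefSeq table, and in 15.0% of the promoters of genes lower by at least 1 on the log2 scale. The shorter letters of the CHR element (TTTGAA or TTCGAA), known from genes of mitosis, were in 10.2% of the member entries, 16.4% of all promoters and 24.8% of those of the genes lower by at least 1. CCAAT, the letters bound by NF-Y, was in 44.9%, 34.6% and 48.4% of the same 3 sets. The 8 listed members with the E2F letters had a median of -1.47 on the log2 scale and the 25 listed members without them one of -1.59. Such a match is a description of letters, and a window without one says nothing about the factor.

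The windows below run from 60 bases before the start to 30 after it, 5′ to 3′ on the gene's strand, and show where the letters lie relative to the start. The first 7 are those in which an E2F match falls, the next 2 hold CHR letters, and FANCF is the member that rose; capitals mark the E2F or CHR letters. Of genes with several entries, the entry with the match is shown. They lie on GRCh38.p14 at chr1:241848144-241848233 (EXO1, plus strand), chr3:10026377-10026466 (FANCD2, plus), chr7:152676112-152676201 (XRCC2, minus), chr9:95317680-95317769 (FANCC, minus), chr2:47783085-47783174 (MSH6, plus), chr3:133661912-133662001 (TOPBP1, minus), chr9:83980745-83980834 (RMI1, plus), chr15:64825618-64825707 (PIF1, minus), chr3:121545959-121546048 (POLQ, minus) and chr11:22625794-22625883 (FANCF, minus).
EXO1: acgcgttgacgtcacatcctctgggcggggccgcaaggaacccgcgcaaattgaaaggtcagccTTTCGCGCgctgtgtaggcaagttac
FANCD2: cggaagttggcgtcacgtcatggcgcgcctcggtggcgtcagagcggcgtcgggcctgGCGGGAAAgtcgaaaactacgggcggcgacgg
XRCC2: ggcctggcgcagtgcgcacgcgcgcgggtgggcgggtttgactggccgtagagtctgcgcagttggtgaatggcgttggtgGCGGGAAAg
FANCC: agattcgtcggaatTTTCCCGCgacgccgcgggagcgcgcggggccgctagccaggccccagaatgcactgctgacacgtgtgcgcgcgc
MSH6: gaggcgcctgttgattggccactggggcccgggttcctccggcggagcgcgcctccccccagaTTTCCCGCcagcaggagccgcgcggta
TOPBP1: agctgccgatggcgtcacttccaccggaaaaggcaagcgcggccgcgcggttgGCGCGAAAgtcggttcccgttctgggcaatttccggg
RMI1: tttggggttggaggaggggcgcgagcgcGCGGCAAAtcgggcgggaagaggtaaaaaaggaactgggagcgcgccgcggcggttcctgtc
PIF1: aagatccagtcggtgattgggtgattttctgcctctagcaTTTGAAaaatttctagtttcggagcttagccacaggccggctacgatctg
POLQ: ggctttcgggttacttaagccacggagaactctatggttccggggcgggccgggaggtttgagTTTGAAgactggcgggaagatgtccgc
FANCF: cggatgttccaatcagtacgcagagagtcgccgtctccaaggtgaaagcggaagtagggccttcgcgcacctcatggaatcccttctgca

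In these windows the E2F letters touched or followed the start in EXO1, FANCD2, XRCC2, MSH6 and TOPBP1 and lay before it in FANCC and RMI1. Counting the start base as 1, they began at position 5 in EXO1, 4 in MSH6 and 22 in XRCC2, spanned the start in FANCD2 (from -2) and ended on it in TOPBP1 (from -7). FANCC had a second match further up, at -172, and FANCA its only one at the same distance. The window of FANCF held none of the marked letters, and its promoter had CCAAT at -92 and -52.

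The 5 genes of the BRCA group all fell, PALB2 by the least. BRCA1, the scaffold and ubiquitin ligase that directs repair towards recombination, stood at -2.09 ± 0.0711 (4.27-fold lower) in the authors' deposited table (adjusted p = 2.57e-188). Its partner in the ligase, BARD1, was at -1.80 ± 0.10 in the authors' deposited table, and the intervals of the pair overlapped (-2.23 to -1.96 and -2.0 to -1.60). The helicase gene BRIP1 (FANCJ) was 4.86-fold lower, at -2.28 ± 0.0966 in the authors' deposited table. BRCA2, the tumour suppressor that acts after end resection, was 3.00-fold lower (-1.59 ± 0.0864 in the authors' deposited table). PALB2, the protein that bridges BRCA1 and BRCA2, fell least of all the members that were lower, at -0.32 ± 0.0820 in the authors' deposited table (adjusted p = 4.21e-04), a call lost with Bonferroni adjustment over 15064 tests. Its interval of -0.48 to -0.16 lay apart from those of the other 4.

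RAD51C, RAD51D, XRCC2 and XRCC3, related proteins that support strand exchange, differed in the size of their fall. XRCC2 was 4.54-fold lower, at -2.18 ± 0.0973 in the authors' deposited table. XRCC3 at -1.10 ± 0.112 and RAD51D at -0.85 ± 0.10 fell less in the authors' deposited table, with intervals that overlapped each other but not that of XRCC2. RAD51C, a subunit of more than 1 complex of this family, stood at -0.45 ± 0.0940 (1.36-fold lower) in the authors' deposited table. Genes that act at strand invasion fell by similar amounts: the authors' deposited table gave -2.35 ± 0.0892 for RAD51AP1, which stimulates strand invasion, and -2.13 ± 0.0850 and -2.01 ± 0.104 for the DNA translocase genes RAD54L and RAD54B. These 3 intervals overlapped.

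End resection was represented by a starter and an extender. RBBP8 encodes CtIP, which starts the trimming of a broken end, and was at -1.23 ± 0.0809 in the authors' deposited table. EXO1, the nuclease that lengthens the single strand and also acts in mismatch repair, was 5.32-fold lower, at -2.41 ± 0.0760 in the authors' deposited table, where its adjusted p of 1.71e-218 was the smallest among the members. The interval of EXO1, -2.56 to -2.26, lay below that of RBBP8, -1.38 to -1.07.

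Genes for taking joined DNA molecules apart fell unevenly. BLM, the Bloom syndrome helicase, was at -1.60 ± 0.0718 in the authors' deposited table. Of the cofactors that make up the dissolvasome with it, RMI2 was at -2.04 ± 0.189 and RMI1 at -0.96 ± 0.0822 in the authors' deposited table. The RMI2 interval (-2.41 to -1.67) overlapped that of BLM and was the widest of the members, whereas that of RMI1 (-1.12 to -0.80) lay above both. EME1, the regulatory subunit of a nuclease that cuts such junctions, was 2.07-fold lower (-1.05 ± 0.0829 in the authors' deposited table), and its catalytic partner MUS81 was not listed.

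Subunits of the Fanconi core complex spanned a wide range, from large falls to the 1 rise. In the authors' deposited table FANCB was at -1.96 ± 0.133 and FANCG at -1.83 ± 0.0931, followed by FANCC at -1.54 ± 0.0991 and FANCE at -1.26 ± 0.0873. FANCM, the translocase that anchors the complex on DNA, was 2.15-fold lower (-1.10 ± 0.105 in the authors' deposited table). FANCA, a scaffold subunit, stood at -0.74 ± 0.0737 and FANCL, the ubiquitin ligase of the complex, at -0.53 ± 0.0859 in the authors' deposited table. FANCF, an adaptor subunit encoded by a single exon, was 1.31-fold higher, at 0.39 ± 0.0870 in the authors' deposited table (adjusted p = 3.32e-05). This call was lost with Bonferroni adjustment over 15064 tests, which left 0 higher members. The FANCF interval of 0.22 to 0.56 did not reach those of the other 7 subunits. UBE2T, the ubiquitin-conjugating enzyme that works with FANCL, was 3.01-fold lower (-1.59 ± 0.0866 in the authors' deposited table), and its interval did not overlap that of FANCL. The clamp genes whose products the complex marks fell by similar amounts, FANCD2 at -2.0 ± 0.0750 and FANCI at -1.93 ± 0.0659 in the authors' deposited table, with overlapping intervals.

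Checkpoint genes split into 1 large fall and several smaller ones. CHEK1, the kinase that ATR activates, was 4.90-fold lower, at -2.29 ± 0.0872 in the authors' deposited table (adjusted p = 4.49e-150). TOPBP1, an activator of ATR, was at -1.06 ± 0.0676 and ATRIP, the binding partner of ATR, at -0.51 ± 0.106 in the authors' deposited table. CHEK2, the kinase downstream of ATM, fell 1.55-fold (-0.63 ± 0.0888 in the authors' deposited table), with an interval of -0.80 to -0.45 against -2.46 to -2.12 for CHEK1. ATR itself was not listed.

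The remaining 3 members act beside recombination. PIF1, a helicase that supports DNA synthesis during break repair, had the largest fall of the members, 6.92-fold (-2.79 ± 0.184 in the authors' deposited table), the 11th lowest value of all listed genes. POLQ, the polymerase of theta-mediated end joining, was 5.25-fold lower (-2.39 ± 0.0879 in the authors' deposited table). MSH6, a subunit of the main mismatch sensor, was 2.62-fold lower (-1.39 ± 0.0697 in the authors' deposited table). PIF1, EXO1, POLQ, RAD51AP1 and CHEK1 were the 5 members within the 100 largest falls.

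**Figure D2:**
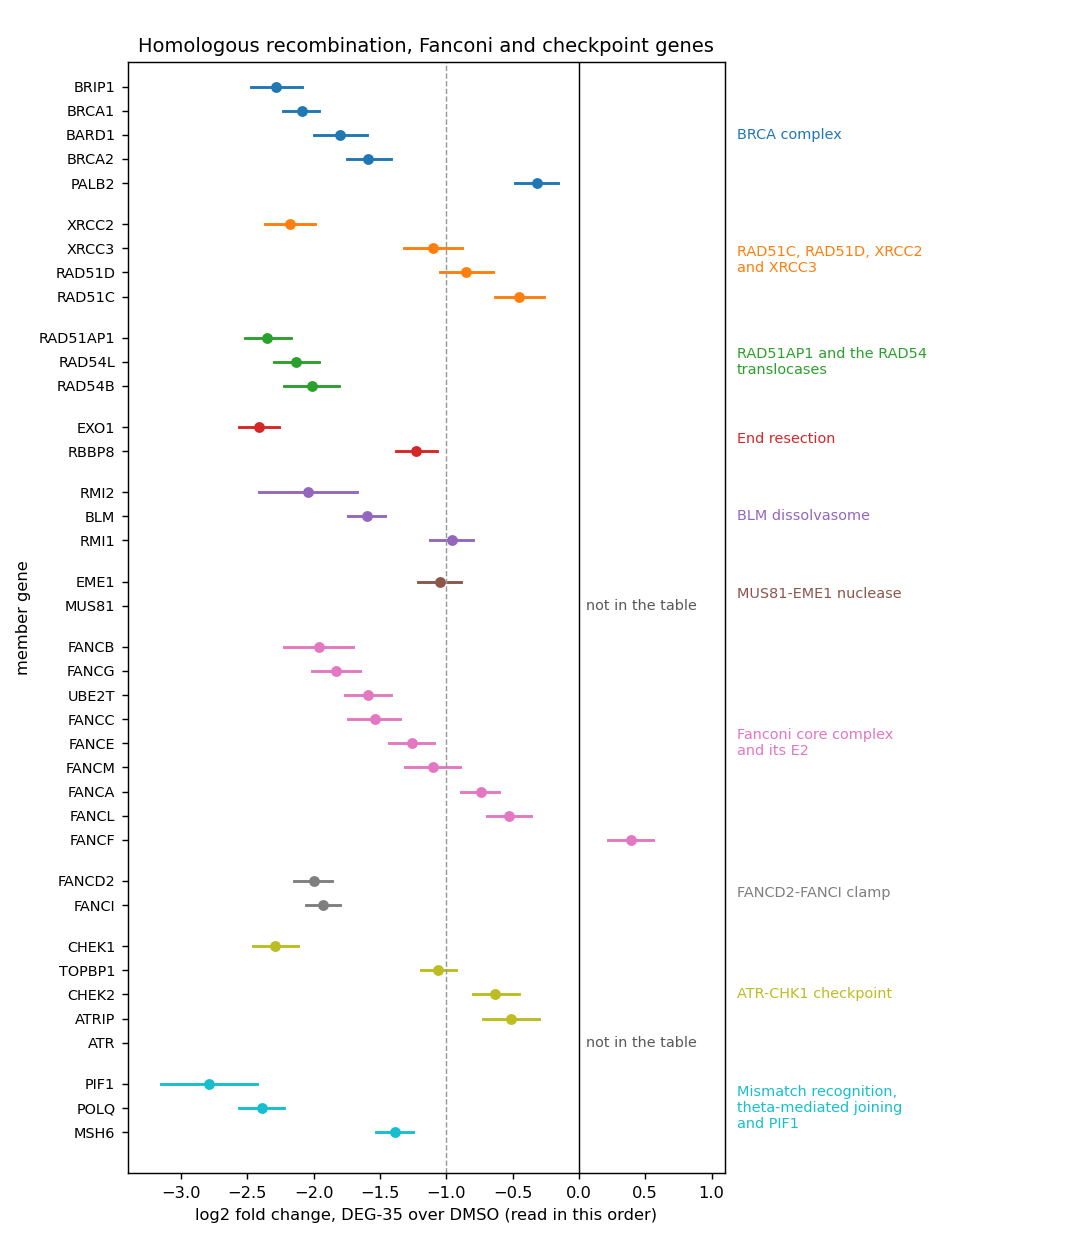
Log2 fold changes of the members are shown by role, with points for the deposited values, bars for the implied 95% intervals and a dashed line at -1. FANCF is the only point right of 0, PALB2 at -0.32 is the fall nearest to it, and ATR and MUS81 have no value.

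Genes of the same pathways outside the member list were lower in the majority. Of 70 such genes, in 5 lists chosen by function, 40 were lower, 8 higher and 22 not listed. The lower ones made up 57.1%, against 24.0% of all tested genes. Those listed had a median of -0.84 on the log2 scale. These 5 lists were drawn up with earlier results of these data known, so their counts and median are no separate support. In the list of other homologous recombination genes 14 of 22 were lower and 4 higher. The resection nuclease gene DNA2 stood at -1.73 ± 0.0895, against 0.61 ± 0.0978 for the annealing factor RAD52 and 0.28 ± 0.0668 for the end-binding RAD50, in the authors' deposited table. Of 17 other Fanconi genes 8 were lower and 9 not listed. USP1, which removes ubiquitin from the clamp, was at -1.55 ± 0.0660 and the ubiquitin ligase RFWD3 at -1.05 ± 0.0644 in the authors' deposited table. Of 13 other checkpoint genes 10 were lower and 1 higher, and the authors' deposited table gave -1.79 ± 0.0611 for the fork protection gene TIMELESS, -2.33 ± 0.0877 for the phosphatase CDC25A and 0.23 ± 0.0711 for the kinase ATM. The BRCA1-A and chromatin response list had 6 of 12 lower and 2 higher, with RIF1 at -0.85 ± 0.0718, PAXIP1 at -0.70 ± 0.0775, FAM175A (Abraxas) at 0.42 ± 0.0770 and BRE at 0.28 ± 0.0915 in the authors' deposited table. Of 6 other mismatch repair genes 2 were lower and 1 higher, the latter PMS2 at 0.26 ± 0.0926 in the authors' deposited table.

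The lists of other repair routes held both lower and higher genes. Lower were 50% of end joining, 42.1% of base excision and 15.8% of nucleotide excision repair genes, against 24.0% of all tested genes. In the 5 same-pathway lists this share ran from 33.3% to 76.9%, a range that holds those of end joining and base excision repair. Of 10 genes of non-homologous end joining, which rejoins ends directly, 5 were lower and 4 higher, with PRKDC at -0.61 ± 0.0553, XRCC6 at -0.51 ± 0.0576, POLL at 0.61 ± 0.0896 and DCLRE1C at 0.36 ± 0.0736 in the authors' deposited table. Of 19 nucleotide excision repair genes 3 were lower and 8 higher, the latter led by the damage sensors XPC at 1.13 ± 0.0758 and DDB2 at 0.84 ± 0.0740, both known p53 targets, and the former by RAD23B at -0.33 ± 0.0615 in the authors' deposited table. Of 19 base excision repair genes 8 were lower and 4 higher, with the glycosylases UNG at -1.53 ± 0.0677 and NEIL3 at -1.40 ± 0.0863, APEX1 at 0.36 ± 0.0544 and NEIL2 at 0.37 ± 0.0934 in the authors' deposited table. These lists are described by their counts, and no test set them against the members.

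Cell division genes moved with the members. Of 23 genes for the MCM helicase and origin licensing 20 were lower and none higher, with a median of -2.06, and in the authors' deposited table MCM4 was at -2.08 (p = 0, so no implied error) and MCM10 at -2.55 ± 0.0731. All 15 mitotic cyclin and kinase genes were lower, with a median of -2.38, among them CDK1 at -2.67 ± 0.0740 and CCNA2 at -2.37 ± 0.0702 in the authors' deposited table. Their part in the members' fall was not tested. In these bulk libraries, fewer cells in S phase and less RNA per cell cannot be told apart.

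**Figure D3:**
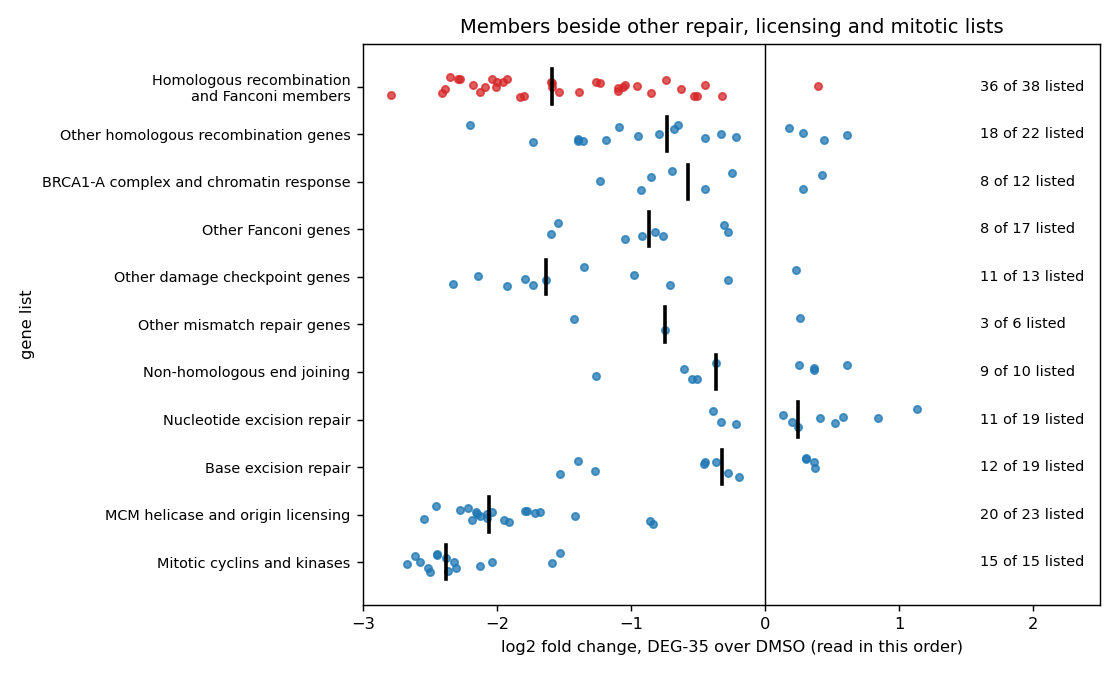
Each point is the log2 fold change of 1 listed gene, in red for the members and blue for the other lists, with a black bar at each list's median and the number listed at the right (vertical scatter within a row has no meaning). The member median of -1.59 lies between those of the other recombination genes (-0.73) and the mitotic genes (-2.38), and the nucleotide excision repair median is 0.24.

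Genes that start beside a member on the other strand were mostly unlisted. In RefSeq on GRCh38.p14, 15 members had at least 1 gene on the other strand whose start lay within 1000 bases of theirs, 17 such genes in all. Of these, 3 were higher and 2 lower, where 21.4% and 24.0% of all tested genes were. The other 12 were not listed: they failed the threshold or were never tested. Opposite the distal of 2 BRCA1 starts lay that of the autophagy receptor gene NBR1, which was higher, at 0.51 ± 0.0726 in the authors' deposited table. Beside FANCB, MOSPD2 was at 0.33 ± 0.0854, and beside PALB2, the dynactin subunit gene DCTN5 was at 0.19 ± 0.0619 in the authors' deposited table. The neighbour of RAD51AP1, C12orf4, was lower at -0.44 ± 0.0844, and that of RMI1, HNRNPK, at -0.28 ± 0.0576 in the authors' deposited table. Each of these 5 genes had an interval that lay above the value of its member, and none fell by as much as 1 on the log2 scale.

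Whether reads were counted by strand is not stated, so the values of overlapping genes belong beside those of the members. Of all 6831 listed genes 3613 were lower, and overlapping genes that were not listed are left out here. Of 11 listed genes that overlap a member 9 were lower. Of these, 6 came close to their member, with overlapping intervals: FANCD2OS, on the other strand of FANCD2, was at -1.73 ± 0.180, ACRV1, opposite CHEK1, at -2.01 ± 0.517, and FSBP, on the strand of RAD54B, at -1.69 ± 0.173 in the authors' deposited table. MIR4741, inside RBBP8, was at -1.44 ± 0.401 and TREX1, which shares a transcript with ATRIP, at -0.42 ± 0.155 in the authors' deposited table. VRK2, opposite FANCL, was at -0.34 ± 0.0835 in the authors' deposited table (interval -0.50 to -0.18, against -0.69 to -0.36 for FANCL). Overlap was taken over whole gene spans, and shared exons were not looked for. Without strand, reads from any exon stretch that such a member and its antisense neighbour share cannot be told apart. In the same-strand pairs the authors' assignment of shared reads was not tested. Others moved apart from their member, with LRRC41 (opposite RAD54L) at 0.52 ± 0.0759 and the zinc-finger gene ZNF276 (opposite FANCA) at 0.49 ± 0.0863 in the authors' deposited table. Lower too, by less than their members, in the authors' deposited table, were LRRC59 (-0.64 ± 0.0558, opposite EME1), POLG (-0.18 ± 0.0646, opposite FANCI) and HNRNPK. CHEK2, FANCD2, RBBP8, BRCA1 and RAD51AP1 also have pseudogene copies named in RefSeq (6, 2, 2, 1 and 1), and reads shared with such copies make these 5 values less certain.

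**Figure D4:**
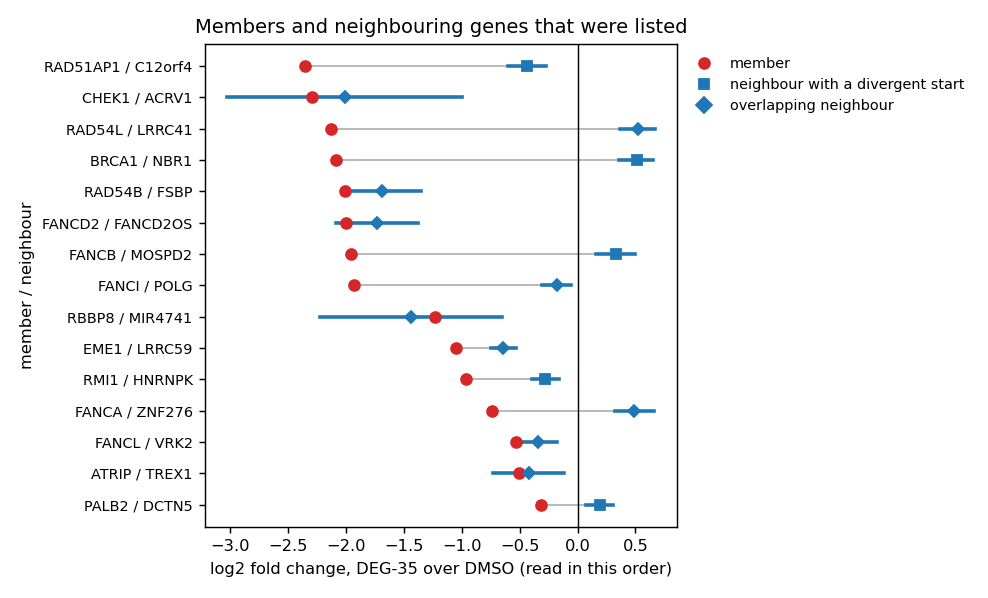
For 15 pairs of a member (red circle) and a listed neighbour (blue square for a divergent start, diamond for overlap) the log2 fold changes are plotted, with the neighbour's implied 95% interval as a blue bar. NBR1, LRRC41, ZNF276, MOSPD2 and DCTN5 lie right of 0 while their members lie left of it; ACRV1, FSBP, FANCD2OS, MIR4741, TREX1 and VRK2 lie close to their members.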

How the data were processed

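Total RNA of the 6 MOLM-13 samples (DMSO, or DEG-35 at 50 nM, both 24 h) went into SMARTer mRNA libraries, per the labels' protocols. For the reads, the submitters' processing notes name hg19, STAR, featureCounts and DESeq2, without versions or options. The authors deposited 1 table, with a column of log2 ratios between the groups, 1 of p-values and 1 of adjusted p-values, per the file headers; whether the ratios were shrunk is not stated. It holds only genes with an adjusted p below 0.05, and no counts.

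The authors' p-values were used as deposited, and no gene was tested anew. The number of tests was read from the adjusted p-values: for all 2789 genes with a p above 1e-04, adjusted p times rank over p lay within 0.1% of 15064. Implied standard errors are the absolute log2 fold change over the normal quantile of the two-sided p, which assumes a Wald test. Both steps were run on simulated data drawn with the same formulas. This checks the arithmetic, and cannot show that the assumption holds for the deposited values. Members were matched by exact symbol, other lists through older symbols too.

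The members and the lists were chosen with earlier results of these data known. Named are all members, the up to 2 genes per list and direction with the smallest adjusted p, and the listed neighbours; a few genes within this rule are left out of the text. Overlapping neighbours were named in full after their values were seen. Neighbours, promoters and synonyms came from RefSeq on GRCh38.p14, and strands of genes without a promoter entry from GENCODE release 29. Scripts ran in Python 3.11.15 with NumPy 2.4.6, pandas 2.3.3, Matplotlib 3.10.9 and SciPy 1.17.1.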

Additional observations from a re-analysis of the deposited data

How the results depend on the processing

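No paired analysis was possible because the table holds no value per library, and leaving out replicates, TMM scaling and a filter on low counts could not be run for the same reason. The alternatives run were an adjusted p below 0.01, Bonferroni adjustment over 15064 tests, an implied SE of at most 0.2, moving each log2 value up or down by 0.3 (applied to listed genes alone, so none entered or left) and older symbols. Of 29 alternative values 28 stayed within the limits set for no change, and none reversed. Bonferroni adjustment took the count of higher members from 1 to 0 (FANCF) and that of lower members from 35 to 34 (PALB2), by construction stricter. Members changed at least 2-fold numbered 21 with the shift up and 30 with the shift down, against 27, and the median ran from -1.29 to -1.89. The alternatives for the 70 other pathway genes were added after the data were seen and gave 33 to 45 lower genes, against 40. Library depth is unknown, so what it limits could not be assessed.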
